A study of Homo sapiens with 6 samples.

Results

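The 10 cytosolic heat shock genes followed here were compared between 786-O, a widely used cell line from a human clear-cell kidney cancer, and 7R, its sunitinib-resistant derivative. They are HSF1, HSPA1A, HSPA1B, HSPA8, HSP90AA1, HSP90AB1, HSPB1, DNAJB1, HSPH1 and BAG3, found by gene symbol as 10 of the 54261 gene rows of the count table. Sunitinib inhibits several receptor tyrosine kinases, among them the VEGF and PDGF receptors. Total RNA was sequenced from 3 libraries of 786-O, called control, and from 3 libraries of 7R, called resistant. Each group is 1 cultured line, and the labels do not give the drug exposure that produced 7R, whether sunitinib was present at harvest, or whether 7R is 1 clone. Separate cultures are not named in the labels for libraries of the same line. The p-values therefore rest on the spread among 3 libraries per line, and that spread may be technical.

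Heat shock proteins are chaperones: they bind unfolded proteins, keep them from aggregating and help them reach or regain their fold. HSF1 is the transcription factor that raises their transcription when unfolded proteins accumulate, by binding repeats of GAA and TTC (heat shock elements) in their promoters, and the chaperones HSP70 and HSP90 hold HSF1 in check. HSPA8 and HSP90AB1 are the constitutive cytosolic HSP70 and HSP90, while HSPA1A, HSPA1B and HSP90AA1 are the forms known for stronger induction by heat. Tumour cells, renal carcinoma included, commonly depend on HSP90 for the stability of kinases and of hypoxia-inducible factors.

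The promoters of the members with the most complete exact matches to heat shock elements are shown first, since the members share HSF1 as a regulator. RefSeq promoter windows (GRCh38.p14, 250 bases before to 50 after a transcription start) were found for 9 of the 10 members, all but HSF1, with 14 windows in all because some genes have several starts. The search used GAANNTTC and TTCNNGAA, which are 2 units facing each other, and its 3-unit extensions, GAA, any 2 bases, TTC, any 2 bases, GAA, or the same alternation beginning with TTC. Both patterns of each kind were searched, so both strands were covered, and every 3-unit match also holds the 2-unit match. The 250 bases before the start follow for 4 members, 5' to 3' on the gene's strand. Capitals mark the 3-unit matches in HSP90AA1, HSP90AB1 and HSPA8 and the 2-unit matches in DNAJB1. HSP90AA1 holds 1 further 2-unit match, left in lower case after the capitals. HSP90AA1 is at chr14:102087045-102087294 (minus strand), HSP90AB1 at chr6:44247693-44247942 (plus), HSPA8 at chr11:123062137-123062386 (minus) and DNAJB1 at chr19:14518398-14518647 (minus).
HSP90AA1: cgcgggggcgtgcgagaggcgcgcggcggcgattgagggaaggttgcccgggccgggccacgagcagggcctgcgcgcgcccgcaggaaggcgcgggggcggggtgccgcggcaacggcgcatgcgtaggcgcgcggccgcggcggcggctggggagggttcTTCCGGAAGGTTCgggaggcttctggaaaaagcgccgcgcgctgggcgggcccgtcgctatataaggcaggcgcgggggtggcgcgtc
HSP90AB1: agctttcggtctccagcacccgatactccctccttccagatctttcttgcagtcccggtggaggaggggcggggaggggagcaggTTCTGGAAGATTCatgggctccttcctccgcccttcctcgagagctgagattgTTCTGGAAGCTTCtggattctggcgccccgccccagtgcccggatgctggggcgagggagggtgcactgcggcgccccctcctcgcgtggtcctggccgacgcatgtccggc
HSPA8: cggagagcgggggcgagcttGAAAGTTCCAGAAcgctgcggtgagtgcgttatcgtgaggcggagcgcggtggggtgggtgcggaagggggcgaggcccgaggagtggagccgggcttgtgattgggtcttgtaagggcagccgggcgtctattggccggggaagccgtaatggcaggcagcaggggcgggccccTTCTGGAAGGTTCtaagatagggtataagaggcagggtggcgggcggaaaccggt
DNAJB1: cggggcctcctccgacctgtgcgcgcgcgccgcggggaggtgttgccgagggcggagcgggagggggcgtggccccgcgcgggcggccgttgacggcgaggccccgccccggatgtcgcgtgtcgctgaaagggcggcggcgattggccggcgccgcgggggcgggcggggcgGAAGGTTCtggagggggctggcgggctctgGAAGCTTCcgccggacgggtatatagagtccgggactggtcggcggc

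Elements of 3 units were found in HSPA8, starting 230 and 55 bases before the start, in 1 window of HSP90AA1 (88 bases before) and in 1 window of HSP90AB1 (165 and 112 bases before). Such an element occurred in 172 of 35116 RefSeq windows (0.490%). The other windows of HSP90AA1 and HSP90AB1 held neither pattern. For both genes the window with elements belongs to the most downstream listed start, so the elements lie downstream of every other listed start. The distances are to that most downstream start, and which start these cells used was not measured. DNAJB1, HSPB1, HSPA1A and HSPA1B held the 2-unit pattern alone, which 4737 windows (13.5%) contained alone or extended. In DNAJB1 the pairs shown start 77 and 47 bases before the start, and in HSPB1 the pair starts 182 bases before. Neither pattern is in the windows of HSPH1 or BAG3. These are exact matches of letters, so elements with imperfect units were not counted, and binding of HSF1 was not measured here. The members with 3-unit elements did not share a direction in the counts, as described below: HSP90AA1 was higher in the resistant line, and HSPA8 and HSP90AB1 were lower.

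Total counts were 48264905 to 52221491 in the control libraries and 37919629 to 38131634 in the resistant ones. Counts were scaled to a common library total (CPM) with TMM factors, which ranged over 0.867 to 0.912 in the control line and over 1.12 to 1.14 in the resistant line. Resistant replicate 1 stood apart from the other resistant libraries (chi-square per degree of freedom 62.9 and 60.1, against 8.94 between the other two), so values without it are given where they bear on a result. Control replicate 1 also stood apart, with 26.5 and 35.5 against 12.4 between the other two control libraries. The extraction text in the labels names prefrontal cortex, whereas the remaining labels name 786-O. Renal and epithelial markers summed to 3432 to 4028 CPM in control and 1523 to 1830 CPM in resistant libraries with 0 of 10 at 0 over all libraries, although EPCAM had no count in control. Brain markers summed to 32.7 to 35.6 and 53.1 to 60.4 CPM, with MBP, which other cells also express, supplying most of the sum. SNAP25 rose from 3.32 to 12.9 CPM and SYT1 from 0.405 to 2.29 CPM (edgeR adjusted p = 9.33e-07 and 6.05e-05). Of the astrocyte markers, GFAP had at most 0.184 CPM in any library. AQP4, the other, had 0 counts in each control library and 12, 17 and 17 in the resistant ones (edgeR adjusted p = 2.61e-04). GAD1 went the other way, from 4.27 to 1.86 CPM (edgeR adjusted p = 0.00104). Of 6 brain markers tested, 4 were called higher and 1 (GAD1) lower. Of the 11 brain markers, 2 (MOG and AIF1) were at 0 in every library. AIF1 lies in a stretch around HSPA1A where most genes were listed at 0, so its zero says nothing of brain RNA. MOG is also on chromosome 6, and whether the same gap reaches it was not tested. Fibroblast, endothelial and blood markers summed to 41.8 to 49.3 CPM in control and 27.9 to 51.5 CPM in resistant libraries, with 1 of 9 (PTPRC) at 0. These sums hide opposite changes: LUM rose from 1.69 to 30.3 CPM and CD68 fell from 42.1 to 9.24 CPM (edgeR adjusted p = 2.89e-07 and 8.29e-08). The part of these markers in the results below was not tested.

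The comparison asked how the heat shock genes differ between the resistant line and its parent. Of the 10 members, 8 passed the low-count filter, and all 8 passed the test: HSP90AA1 and HSPH1 were higher in the resistant line, and HSPA8, HSP90AB1, HSPB1, DNAJB1, BAG3 and HSF1 were lower. Counts were compared with edgeR's quasi-likelihood test, adjusted by the Benjamini-Hochberg method over all 16642 genes tested, at a threshold of 0.05. Over all tested genes, 39.3% were called higher and 36.9% lower, so a call by itself does not set a member apart. The median log2 fold change (resistant over control) was -0.84 over the 8 members and 0.05 over all tested genes. The libraries of the 2 lines did not overlap for any of the 8, which also held for 80.3% of all tested genes. In bulk RNA, fewer cells expressing a gene and less RNA per cell cannot be told apart.

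Fold changes in these libraries followed the GC content of the transcripts, which bears on every member. Spearman's rho of GC content with log2 fold change was -0.68 over the 13912 tested genes that could be matched to transcripts, a description across genes that are not independent. The median log2 fold change was 1.32 for the 10% of genes lowest in GC content and -1.34 for the 10% highest. Each member is therefore also given with the library's smooth dependence on GC content and on length removed, written below as adjusted for GC. With that adjustment 34.4% of the 13912 genes were called higher and 32.6% lower, and the median of all was 0.02. Of the members, 2 were then higher (HSF1 and HSP90AA1), 4 were lower (HSPA8, HSP90AB1, DNAJB1 and HSPH1), and HSPB1 and BAG3 did not pass the test, with a member median of -0.19. Whether the GC trend came from the cells or from library preparation was not tested.

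**Figure D1:**
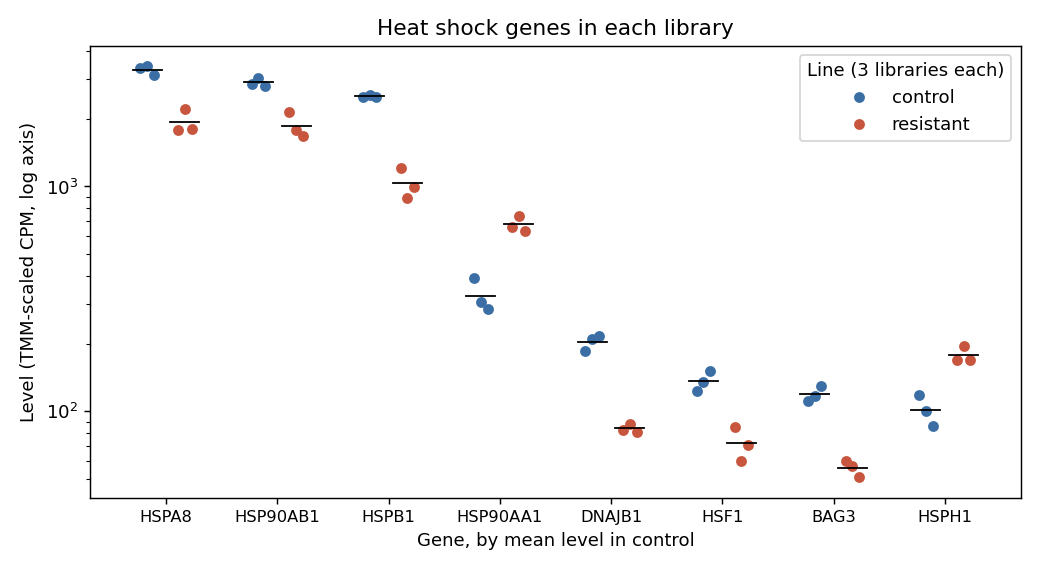
Level of the 8 tested members in each library (TMM-scaled CPM on a log axis), with control libraries in blue, resistant libraries in red and a line at each mean of 3 libraries. HSP90AA1 (327 to 678 CPM) and HSPH1 (102 to 178 CPM) lie higher in the resistant line, and the other 6 lie lower.

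HSF1, the regulator itself, had 5418, 5872 and 6813 counts in the control libraries and 3696, 2570 and 3022 in the resistant ones. Every resistant library was below every control library, and resistant replicate 1 was the highest of its group. Its level was 136.3 ± 13.7 CPM in control and 72.3 ± 12.8 CPM in resistant (SD, n = 3 each), a log2 fold change of -0.92 ± 0.14 (SE; edgeR adjusted p = 6.22e-05). HSF1 has the highest GC content of the tested members (64.1%), and adjusted for GC its direction was the opposite, 0.63 ± 0.07 (edgeR adjusted p = 9.81e-06). Without resistant replicate 1 these values were -1.06 unadjusted and 0.59 adjusted. The data thus give no single direction for HSF1 transcript. Of the exonic bases of HSF1, 2.62% overlap DGAT1 on the opposite strand, and without a stated strand setting reads there cannot be assigned to one gene.

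The tested genes nearest to HSF1 in pattern were AHCY, PNPLA6 and PLXND1, among 10515 genes with a mean of at least 5 CPM. Likeness was the root mean square distance of log2 CPM, each gene centred on its mean over the 6 libraries. The distances were 0.0360, 0.0442 and 0.0454. Their log2 fold changes were -0.95, -0.93 and -0.99 unadjusted, and adjusted for GC 0.00, 0.41 and 0.16. AHCY makes adenosine and homocysteine from S-adenosylhomocysteine, PNPLA6 is a phospholipase and PLXND1 is a semaphorin receptor.

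HSPA8, the constitutive HSP70 that folds newly made proteins and uncoats clathrin vesicles, was lower in the resistant line. The control libraries had 147763, 148265 and 141367 counts and the resistant ones 76817, 94420 and 76497. All resistant libraries lay below all control libraries, with resistant replicate 2 above the other two. The level fell from 3299 ± 155 to 1929 ± 241 CPM (SD, n = 3 each), a log2 fold change of -0.77 ± 0.11 (SE; edgeR adjusted p = 3.61e-05). The decrease was also called with the GC adjustment, at -0.99 ± 0.08 (edgeR adjusted p = 7.18e-07). Its transcripts have a GC content of 45.7%, where the trend over all genes ran towards higher values in the resistant line. The small nucleolar RNAs SNORD14C and SNORD14D share 1.82% and 1.79% of the exonic bases of HSPA8.

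HSPA1A and HSPA1B, the heat-inducible HSP70 pair, were close to absent from the table. HSPA1A had 2, 0 and 7 counts in control and 0 in each resistant library, and HSPA1B was listed at 0 in every library. Where a library has 0, up to 3 counts remain possible by counting error alone, which is 0.0663 to 0.0707 CPM. Neither gene was tested, and no fold is given. HSPA6, another strictly inducible HSP70 that was chosen for mention after its values were seen, had 8, 12 and 19 counts in control and 0, 4 and 1 in resistant libraries.

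Both genes sit in a stretch of chromosome 6 where most coding genes were also listed at 0. Of the 40 coding genes around the pair, 20 on each side in RefSeq order, 26 (65.0%) had 0 counts in every library and 37 (92.5%) had under 100 counts over the 6 libraries. Among the other 865 coding genes of chromosome 6 these shares were 23.2% and 43.0%. Genes that nearly every cell uses were among those listed at 0: the splicing factor LSM2, the kinase subunit CSNK2B and the channel protein CLIC1, and further along the chromosome the ribosomal protein RPS18, the prefoldin subunit PFDN6 and the tubulin TUBB. The HSP70 regulator BAG6 had 15 counts, and the testis form HSPA1L had 0. Only 3 of the 40 neighbours exceeded the limit: PRRC2A with 2501 counts, AGPAT1 with 1482 and ATF6B with 168. The counts of HSPA1A and HSPA1B therefore cannot be read as expression levels, and the cause of the gap was not tested.

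**Figure D2:**
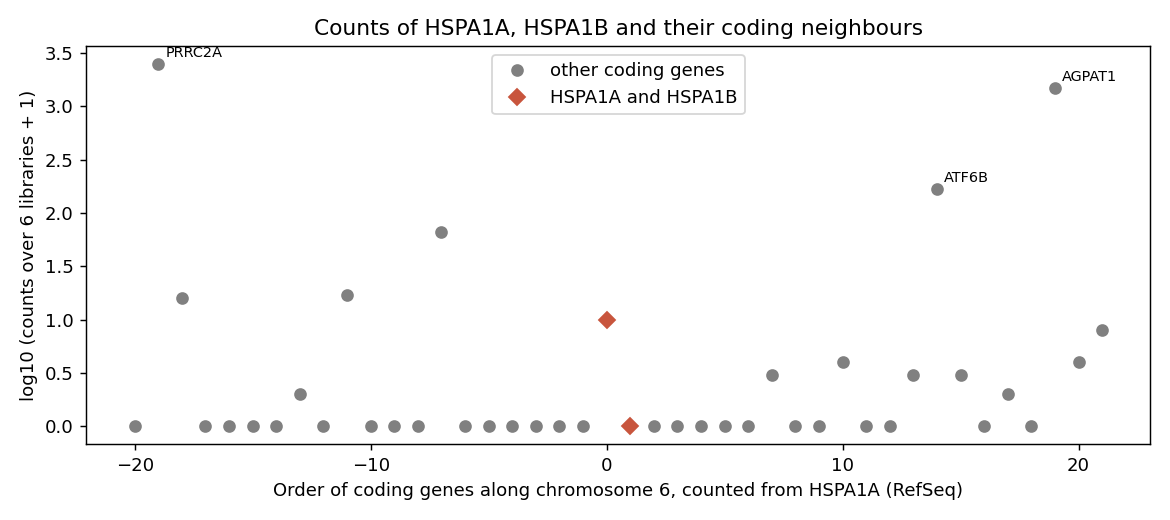
Counts summed over the 6 libraries (log10 of the sum + 1) for HSPA1A, HSPA1B (red diamonds) and 40 coding neighbours (grey), ordered along chromosome 6 from HSPA1A. Most neighbours lie at 0, and 3 of them, PRRC2A, ATF6B and AGPAT1, exceed 100 counts.

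The pair is also hard to tell apart by sequence. The promoter windows were identical in 277 of 301 aligned columns (92.0%) and the longest transcripts in 87.9%, against 66.7% between HSPA1A and HSPA8 transcripts. Of the stretches of 100 bases in their transcripts, 67.3% in HSPA1A and 72.7% in HSPA1B occur in another gene as well. Those other genes are the pair's other member and AL671762.1, a processed transcript. AL671762.1 shares 36.5% of the exonic bases of HSPA1B on the same strand. A stretch of 120 bases from each promoter shows the likeness, with the 5 differing bases in capitals. HSPA1A is at chr6:31815353-31815472 and HSPA1B at chr6:31827549-31827668, both on the plus strand of GRCh38.p14 (RefSeq).
HSPA1A: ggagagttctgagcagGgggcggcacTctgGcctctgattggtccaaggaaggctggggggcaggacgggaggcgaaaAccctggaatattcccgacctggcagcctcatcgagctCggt
HSPA1B: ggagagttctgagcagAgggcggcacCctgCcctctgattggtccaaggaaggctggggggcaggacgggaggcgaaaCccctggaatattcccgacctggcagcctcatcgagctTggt

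The other members share little or no sequence with other genes at that length. For HSF1, HSPA8, DNAJB1, HSPH1 and BAG3 no stretch of 100 bases recurred in another gene, and for HSP90AA1, HSP90AB1 and HSPB1 the shares were 1.28%, 1.38% and 2.37%. The pseudogenes HSP90AB3P, HSP90AA2P and HSPB1P1 had 2062, 341 and 131 counts over all libraries. The read length is not given in the sources used here.

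HSP90AA1, the inducible cytosolic HSP90, had 17171, 13296 and 12926 counts in control and 28593, 31509 and 26990 in resistant libraries. The resistant libraries were all higher, although they held fewer counts in total. The level was 327 ± 55.3 CPM in control and 678 ± 52.2 CPM in resistant (SD, n = 3 each), 2.07-fold higher with a log2 fold change of 1.05 ± 0.13 (SE; edgeR adjusted p = 1.00e-05). Adjusted for GC the increase was smaller, 0.46 ± 0.08 (edgeR adjusted p = 5.21e-04), and still called. Without control replicate 1, the highest of its group, the unadjusted value was 1.14. WDR20 overlaps 3.75% of its exonic bases on the opposite strand.

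HSP90AB1, the constitutive HSP90, moved the other way. It had 126278, 131935 and 127156 counts in control and 92250, 76614 and 70930 in resistant libraries. Resistant replicate 1 was the highest of its group and still below every control library once scaled, at 2135 CPM against 2809 to 3040 CPM. The level fell from 2906 ± 120 to 1866 ± 241 CPM (SD, n = 3 each), a log2 fold change of -0.64 ± 0.11 (SE; edgeR adjusted p = 1.82e-04). The GC adjustment gave -0.71 ± 0.09 (edgeR adjusted p = 1.97e-05).

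The 2 HSP90 forms can be compared within each library, where no scaling between libraries enters. The log2 ratio of HSP90AA1 to HSP90AB1 counts, not corrected for length, was -2.88, -3.31 and -3.30 in control and -1.69, -1.28 and -1.39 in resistant libraries. The ratio was higher in every resistant library than in any control library. The means were -3.16 ± 0.25 and -1.46 ± 0.21 (SD, n = 3 each), a difference of 1.71 (exact two-sided permutation test, p = 0.1, the smallest value that 3 against 3 libraries allow). Adjusted for GC and length the difference was 1.18, with ratios of -2.70, -3.02 and -2.98 in control and -1.88, -1.58 and -1.71 in resistant libraries. The groups did not overlap on either scale.

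**Figure D3:**
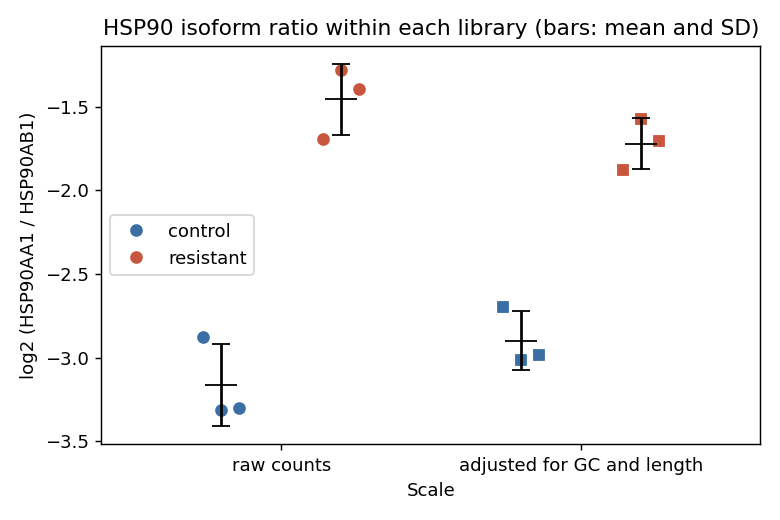
Log2 ratio of HSP90AA1 to HSP90AB1 in each library, from raw counts (circles) and adjusted for GC and length (squares), with control in blue, resistant in red and the mean and SD of 3 libraries as bars. On both scales the resistant libraries lie above the control libraries, by 1.71 and 1.18 on average.

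HSPB1 (HSP27), a small heat shock protein that holds unfolded proteins without using ATP and also binds actin filaments, had 109729, 110636 and 112920 counts in control and 52206, 38020 and 42366 in resistant libraries. The control libraries were nearly equal, and all resistant libraries lay well below them. The level was 2512 ± 32.4 CPM in control and 1032 ± 163 CPM in resistant (SD, n = 3 each), a log2 fold change of -1.28 ± 0.12 (SE; edgeR adjusted p = 1.23e-06). With a GC content of 62.2%, HSPB1 did not pass the test once adjusted for GC, at -0.10 ± 0.07 (edgeR adjusted p = 0.201). Removing the GC trend without length gave 0.066 (edgeR adjusted p = 0.422).

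DNAJB1 (HSP40) is the J-domain partner that hands clients to HSP70 and starts its ATP cycle. It had 8165, 9094 and 9843 counts in control and 3570, 3764 and 3448 in resistant libraries. The resistant libraries were close to each other and far below the control ones. The level fell from 204 ± 16.7 to 83.9 ± 3.55 CPM (SD, n = 3 each), a log2 fold change of -1.28 ± 0.10 (SE; edgeR adjusted p = 5.51e-07). Adjusted for GC the decrease was smaller, -0.57 ± 0.07 (edgeR adjusted p = 3.51e-05). TECR overlaps 5.75% of its exonic bases on the opposite strand.

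HSPH1 (HSP110) exchanges the nucleotide of HSP70 and thereby frees its client. It had 5224, 4364 and 3900 counts in control and 7287, 8361 and 7192 in resistant libraries, every resistant library being higher. The level was 102 ± 16.3 CPM in control and 178 ± 15.2 CPM in resistant (SD, n = 3 each), a log2 fold change of 0.80 ± 0.13 (SE; edgeR adjusted p = 1.02e-04). HSPH1 has the lowest GC content of the tested members (40.3%), and adjusted for GC it was lower, at -0.29 ± 0.09 (edgeR adjusted p = 0.0109). Like HSF1, it has no single direction in these data.

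BAG3, which joins HSP70 to small heat shock proteins and to autophagy, had 4879, 5097 and 5851 counts in control and 2600, 2439 and 2168 in resistant libraries. The groups were again apart, all resistant libraries being lower. The level was 119 ± 9.33 CPM in control and 56.1 ± 4.63 CPM in resistant (SD, n = 3 each), a log2 fold change of -1.09 ± 0.11 (SE; edgeR adjusted p = 2.69e-06). Adjusted for GC (56.9% in its transcripts) the value was -0.08 ± 0.07 and not called (edgeR adjusted p = 0.343).

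**Figure D4:**
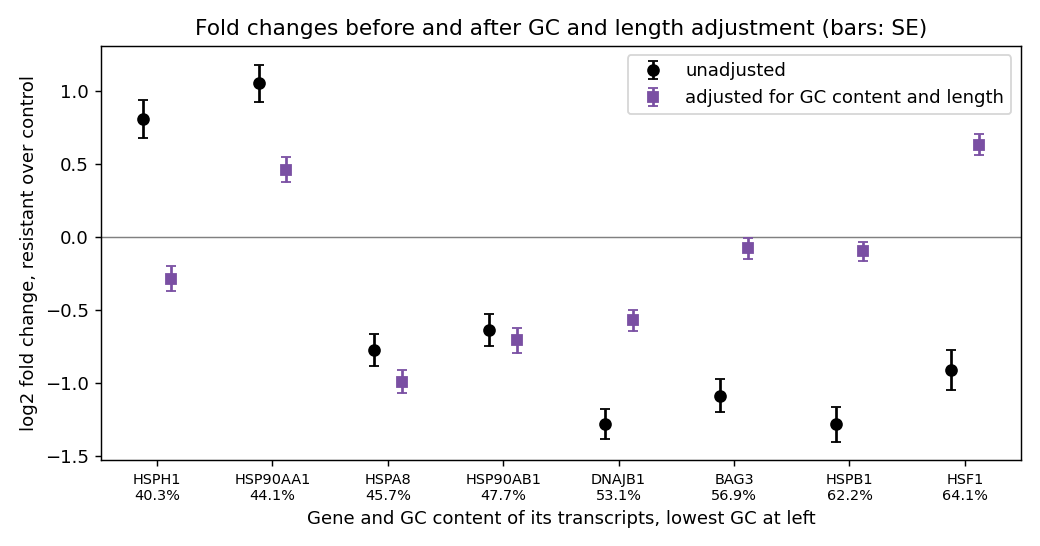
Log2 fold change, resistant over control, of the 8 tested members with its SE, ordered by the GC content of their transcripts from 40.3% (HSPH1) to 64.1% (HSF1), unadjusted (black circles) and adjusted for GC content and length (purple squares). HSPH1 and HSF1 change sign, HSPB1 and BAG3 move to near 0, and HSP90AA1, HSPA8, HSP90AB1 and DNAJB1 stay on their side of 0.

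Thus 4 members were called in the same direction with and without the GC adjustment: HSP90AA1 higher, and HSPA8, HSP90AB1 and DNAJB1 lower. Without resistant replicate 1 and unadjusted, their log2 fold changes were 1.06, -0.73, -0.76 and -1.28. The 10 members together took 0.880%, 0.873% and 0.806% of all counts in the control libraries and 0.701%, 0.676% and 0.613% in the resistant ones. This share was lower in each resistant library than in any control library, and HSPA8, HSP90AB1 and HSPB1 supplied most of it. The shares were not adjusted for GC, and the decrease of HSPB1 was not called with that adjustment.

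Per kilobase of transcript, HSPB1 was the most abundant member in both lines. In control, HSPB1 (3472 to 3551 CPM per kb) was followed by HSPA8 (1558 to 1705) and HSP90AB1 (1075 to 1164), none of which overlapped its neighbour. DNAJB1 (104 to 122) and HSP90AA1 (82.9 to 113) came next with overlapping ranges, then HSF1 (58.0 to 70.9), BAG3 (43.1 to 50.3) and HSPH1 (20.1 to 27.7). In the resistant line the first 3 ranks were held by the same genes, HSPB1 (1238 to 1683 CPM per kb), HSPA8 (887 to 1101) and HSP90AB1 (639 to 817). HSP90AA1 (185 to 214) then lay above DNAJB1 (45.7 to 49.5) without overlap, followed by HSPH1 (39.4 to 45.7) and HSF1 (28.3 to 40.3), whose ranges overlapped, and BAG3 (19.9 to 23.4). These levels were not adjusted for GC.

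The wider chaperone network was described by lists of related genes, whose counts are descriptions to be read beside the 39.3% of all tested genes called higher and 36.9% called lower. Among heat shock factors and their regulators, 2 of 5 tested genes rose and 1 fell: HSBP1L1 (log2 fold change 0.74), HSF2, the second heat shock factor (0.97), and HSBP1, a protein that binds HSF1 trimers (-0.52). Adjusted for GC, HSBP1L1 was 1.37 and HSBP1 was -0.94, and HSF2 was -0.01 and not called. The list's median was 0.12 unadjusted and 0.43 adjusted, against 0.05 and 0.02 over all tested genes. HSBP1 fell in both fits, whereas HSF1 fell in one and rose in the other.

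Among the other cytosolic HSP70 and HSP110 genes, 2 of 5 rose and 1 fell (median 0.07). HSPA4L and HSPA4, which are HSP110 proteins like HSPH1, rose by 1.65 and 1.13 on the log2 scale, and both were also called higher adjusted for GC (0.49 and 0.43), where HSPH1 was lower. HSPA12A, a distant HSP70 relative, fell by 0.44, and by 0.62 adjusted. Of 4 other small heat shock proteins tested, 1 rose, HSPB11 (0.33), a protein of cilia, which was lower with the adjustment (-0.93). CRYAB (0.87) and HSPB8, which works with BAG3 (-0.16), were not called (edgeR adjusted p = 0.0605 and 0.147), and adjusted for GC both were called higher (1.12 and 0.59).

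Of 16 other J-domain genes tested, 8 rose and 4 fell, unadjusted (median 0.48) and with the adjustment (median 0.24). DNAJB4, a close relative of DNAJB1, rose by 2.12 on the log2 scale, where DNAJB1 fell by 1.28. DNAJC13, which acts on endosomes, rose by 2.08, and DNAJC6 (auxilin), which works with HSPA8 in uncoating clathrin, rose by 1.25. Adjusted for GC these 3 genes remained higher, at 0.88, 0.96 and 0.32. DNAJB12 fell by 0.95, and DNAJC5, a synaptic vesicle protein, fell by 0.82 but was not called adjusted (0.12).

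Of 7 other BAG and HSP70 cochaperone genes tested, 4 rose and 2 fell (median 0.40), and adjusted for GC 2 rose and 4 fell (median -0.21). The ubiquitin ligase STUB1 (CHIP), which marks HSP70 clients for degradation, and the exchange factor HSPBP1 fell by 1.79 and 1.81. Adjusted, their values were -0.21 and -0.25, both still called lower. ST13 (HIP), which slows the HSP70 cycle, rose by 0.99, and by 0.52 adjusted.

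All 15 HSP90 cochaperones were tested, and 6 rose and 8 fell (median -0.56), or 4 and 5 adjusted for GC (median -0.07). SUGT1 and CHORDC1, which both bind HSP90, rose by 1.70 and 1.53, and UNC45A, which folds myosin, fell by 1.42. Adjusted, these were 0.41, 0.43 and -0.28, all called. Of 13 genes of the chaperonin TRiC and its partner prefoldin, 7 rose and 4 fell (median 0.36), while adjusted for GC 4 rose and 7 fell (median -0.35). CCT8 and CCT6A rose by 1.02 and 0.85, and PFDN5 and CCT3 fell by 0.70 and 0.77. Their adjusted values kept those directions, at 0.45, 0.29, -0.60 and -0.35.

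Of 16 tested genes known to be induced by heat through HSF1, 6 rose and 7 fell (median -0.02), or 7 and 4 adjusted for GC (median 0.13). Over all genes with a GC value the adjusted shares were 34.4% higher and 32.6% lower, so the list is not set apart by these counts. SERPINH1, the collagen chaperone HSP47, fell by 1.32 but was not called adjusted (-0.06). CHORDC1, HSPA4L, DNAJB4, HSPA6, DNAJA1, STIP1, AHSA1, FKBP4, CACYBP and CRYAB of this list also belong to lists above. HSPD1 and HSPE1 belong to the mitochondrial list as well, so the counts of these lists are not independent. Of 9 mitochondrial chaperones, 3 rose and 4 fell in both fits (medians -0.30 and -0.35). HSPD1 (HSP60) rose by 1.20, and by 0.58 adjusted. GRPEL2, an exchange factor of mitochondrial HSP70, rose by 1.71, and by 1.49 adjusted, and TRAP1, the mitochondrial HSP90, fell by 1.44, and by 0.36 adjusted.

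**Figure D5:**
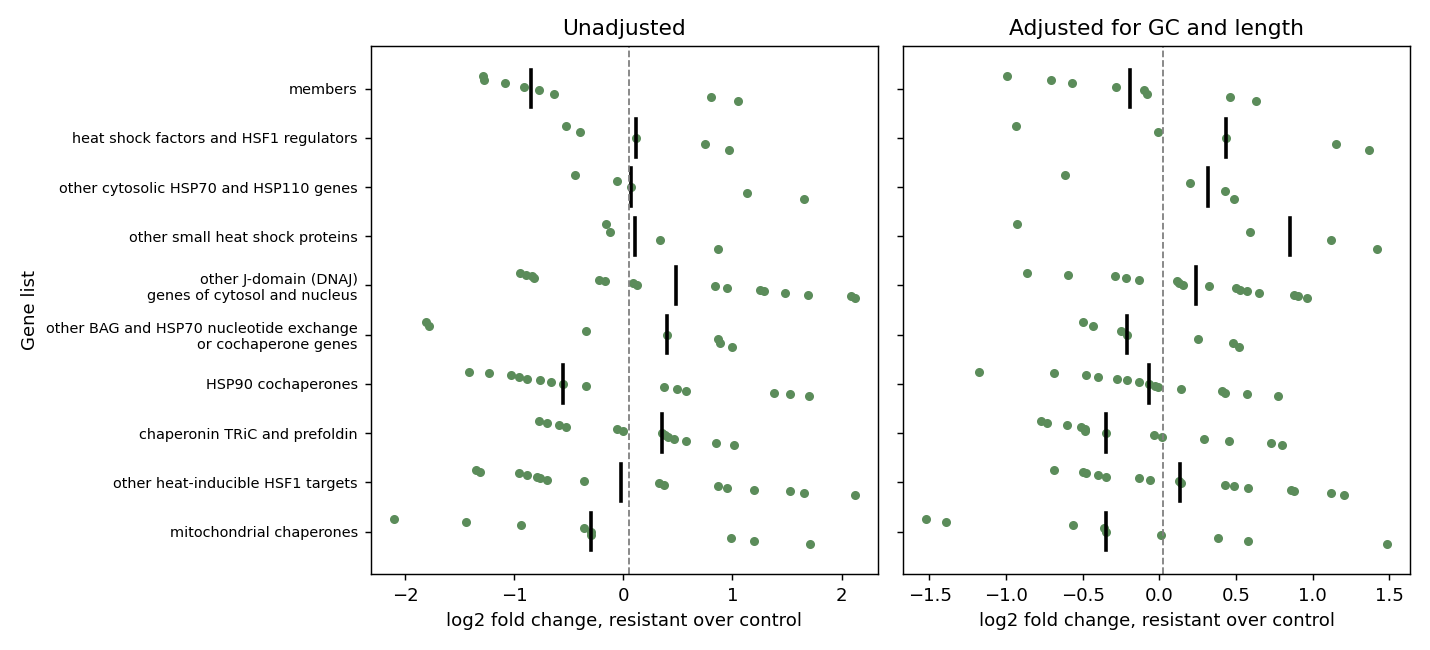
Log2 fold change, resistant over control, of each tested gene (points) by list, with the list median as a bar and the median of all tested genes as a dashed line, unadjusted at left and adjusted for GC and length at right, on separate horizontal scales. The median of the members is -0.84 at left and -0.19 at right.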

How the data were processed

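Total RNA of 6 libraries was sequenced, and the authors deposited whole-number raw counts for each gene symbol in each library. HISAT2 2.0.4 was used, per the submitters' processing notes; how reads were counted, with which strand setting, build and annotation, is not given in the sources used here. Libraries were grouped by title and phenotype. The members and gene lists were chosen with earlier results of these data known.

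Genes were kept by filterByExpr (16642 of 54261), scaled by TMM and compared with edgeR 4.0.16 (R 4.3.3), with no covariate and Benjamini-Hochberg adjustment at 0.05. SE was approximated by dividing the size of the log2 fold change by the square root of the F statistic. GC content and length are medians over GENCODE release 29 basic transcripts, available for 83.6% of tested genes. The adjustment fitted each library's deviation in log2 CPM (prior count 1) by natural splines, with 6 degrees of freedom for GC content and 5 for log2 length, and the fit became an offset. It also removes any biological difference that follows GC content. Alternatives included DESeq2 1.42.0, other scalings and filters, a replicate block and leaving out each library. The test and the adjustment were also run on simulated data. The simulated GC trend was the one fitted to these libraries, so that run cannot tell where the trend came from.

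All members were named. From each list the 3 genes with the smallest p were named, with up to 2 against the list's direction; 1 gene picked by this rule is not reported here. The ratios of HSPA1A plus HSPA1B to HSPA8 and of HSPA1A to HSPA1B, and the genes nearest to HSPA1A in pattern, were planned but not computed because of counts of 0. The total counts limit precision. Floors cover counting error alone, because reads copied by PCR are not separate molecules.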

Additional observations from a re-analysis of the deposited data

How the results depend on the processing

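Outside the settings that removed the GC trend, all 8 tested members kept their direction and call: library size alone, DESeq2 or upper-quartile factors, no low-count filter, at least 1 CPM in 3 libraries, DESeq2's Wald test, the replicate block, and leaving out each library. Scaling by library size alone moved the median log2 fold change of all genes from 0.05 to 0.39. The share of called genes that were higher went from 51.6% to 62.5%, so each fold change is relative to the TMM scale. HSF1 reversed with GC and length removed (0.63), with the replicate block added (0.63), with GC alone (0.53) and with GC and length removed without resistant replicate 1 (0.59). In the same 4 settings HSPH1 reversed (-0.29, -0.29, -0.26 and -0.34). HSPB1 reversed with GC alone (0.066), and neither HSPB1 nor BAG3 was called in any of these 4 settings. With HSF1 also leaving the lower group and HSPH1 joining it, 4 members were lower in place of 6: HSPA8, HSP90AB1, DNAJB1 and HSPH1. The last 2 of these settings were chosen after seeing the data. The HSP90AA1 to HSP90AB1 difference moved from 1.71 to 1.18 with GC and length removed, and was 1.62 to 1.85 when each library was left out. The cause of these shifts was not tested beyond the construction of the adjustment. Same-numbered libraries did not deviate together (r = -0.35, -0.06 and -0.21). With 3 libraries a group, such correlations cannot decide whether the numbers name pairs. The replicate block gave 6246 higher and 5851 lower genes, against 6540 and 6143, and left 2 members higher and 6 lower. With 3 libraries a group, no permutation p for the ratio can go below 0.1. The alternatives planned for the 2 ratios with HSPA1A were not run, because of counts of 0.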
